A study of Homo sapiens with 6 samples.

Results

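The long intergenic noncoding RNAs (lincRNAs) described here are the rows that the deposited table gives the biotype lincRNA and whose normalized count averaged at least 50 over 5 libraries. Those 5 libraries are the 3 Caba-780 libraries and control replicates 1 and 2. The rule keeps 109 of the 1833 lincRNA rows, in a table of 23619 genes. The genes were thus chosen by their measured level in these libraries, and the levels themselves are a description. The group difference is not part of the rule, but because the mean pools both groups a gene can reach it through the group where it is high. The mean of control replicates 1 and 2 was under 50 in 9 of the 109 genes, and the Caba-780 mean in 7. Of the 109 genes, 4 are on a list of hosts of small nucleolar RNAs (snoRNAs) that was set by gene symbol. These are set apart below, which leaves 105 others. The start and end of all 109 genes equal those of GENCODE release 29 on GRCh38, and the genes lie on 22 chromosomes.

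The cells were T24, a long-established line from a human bladder tumour, with the genotype given as wild type in all 6 libraries. For the Caba-780 group, 3 libraries were made from cells exposed to 3.84 µM Caba-780, a compound for near-infrared fluorescence imaging, for 24 h. The control group has 3 libraries whose treatment is given as none, and no vehicle is named. The comparison addresses how the compound changes gene expression in this line. Nothing in the labels says whether replicates came from separately grown cultures. The p-values therefore reflect only how far libraries of 1 line differ, and that spread can be technical.

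A lincRNA is a transcript with no recognised protein-coding frame that lies between coding genes. Some lincRNAs act as RNA, for example as scaffolds of nuclear bodies or as decoys for RNA-binding proteins. Others are mainly carriers that are processed into microRNAs (miRNAs) or snoRNAs, and for many, only the act of transcription next to a coding gene has been linked to a function. Of the 109, 43 have a clone-based name.

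The deposited values are read counts divided by a size factor per library, and are called normalized counts here. Between 14591234 and 15983035 reads fell in genes per library. Control replicate 3 stood apart. The number of genes with any read was 13627 in this library and 19467 to 20308 in the other 5, and the number with 1 to 9 reads was 638 in it and 5636 to 6100 in the others. Within the 109 lincRNAs it had 0 reads in 9, lay below the other 5 libraries in 52 and above them in 22. Its level was 0 to 3.33 times the mean of control replicates 1 and 2, with a median of 0.689 times. Counts of calls and most single changes are therefore given both with all 6 libraries and without control replicate 3. In bulk RNA, fewer cells in a state and less RNA per cell cannot be told apart. The keratin genes KRT7, KRT8 and KRT18 were expressed in all 6 libraries, at 572 to 7675 normalized counts. The epithelial gene CDH1 was at 0 to 2.69 normalized counts, and EPCAM was at 0 except in control replicate 3, which had 38.3. KRT5, KRT19, KRT20 and UPK3A, also looked up, have no row. GATA3, UPK1A and UPK2 were at 0 to 14.7 normalized counts, and PPARG and UPK1B at 64.3 to 224. The mesenchymal genes VIM, CDH2 and ZEB1 were at 265 to 18400.

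The levels of the 109 genes were uneven. The mean normalized count over the 5 libraries ran between 50.1 and 4960, with a median of 104, and 3 genes, NORAD, MALAT1 and NEAT1, held 33.1% of the sum. Gene lengths ran between 583 and 28487 bases, so levels of different genes are compared only per kilobase. On that scale NORAD led with 929 normalized counts per kilobase, and was followed by SNHG8 with 326, MALAT1 with 310.2, AC002401.4 with 266, AC027031.2 with 242 and SNHG15 with 231. The median was 40.9 and the lowest was 3.52, in LINC01588. The order of the genes named after NORAD is not fixed, because their per-library values overlap. AC027031.2 had 144, 139 and 155 normalized counts per kilobase in the Caba-780 libraries, against 388, 381 and 93.8 in the control libraries. SNHG15 had 288, 249 and 317 per kilobase with Caba-780, against 148, 153 and 48.2 in control. SNHG8 had 391, 344 and 482 normalized counts per kilobase in the Caba-780 libraries, against 204, 207 and 119 in the control libraries. MALAT1 had 276, 326 and 245 per kilobase with Caba-780, against 420.3, 283 and 264 in control. AC002401.4, a short gene of 583 bases on chromosome 17 (50094065 to 50094647), had 251, 252 and 229 per kilobase with Caba-780, against 314, 284 and 166 in control.

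With all 6 libraries, none of the 109 lincRNAs passed an adjusted p of 0.05 in limma, where 1.00% of the 13847 genes tested did (0.744% higher and 0.260% lower). At an unadjusted p under 0.05 there were 24 lincRNAs. The quasi-likelihood test of edgeR also called 0, with 25 at an unadjusted p under 0.05, limma-voom called 1, and DESeq2 called 14, of which 8 were higher and 6 lower with Caba-780. DESeq2 called 8.83% of all genes, 5.26% higher and 3.57% lower. The authors' deposited table has an adjusted p under 0.05 for 5 lincRNAs that are higher and 5 that are lower with Caba-780. The higher ones are AF117829.1 (authors' adjusted p = 1.42e-05), PVT1 (0.0146), SNHG8 (0.016), LINC00265 (0.0244) and MIR3142HG (0.0384). The lower ones are MIR137HG (authors' adjusted p = 0.0012), AL035071.1 (0.0064), AC006452.1 (0.0172), MIR4458HG (0.0272) and AC084033.3 (0.0498). Of all 23619 rows deposited by the authors, 3.56% have an adjusted p under 0.05 (2.35% higher and 1.20% lower). Those rows include many below the filter used for limma, which 13847 genes passed, so this share is not comparable with that of the 109. The lowest adjusted p in limma, 0.0582, belonged to AF117829.1.

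Without control replicate 3, 19 lincRNAs rose and 21 fell at an adjusted p under 0.05 in limma. These 40 are 36.7% of the 109, where 32.4% of all 13708 genes tested were called, so the share of lincRNAs is near that of genes at large. In all genes 17.2% were higher and 15.2% lower. With library totals as the scaling, 21 rose and 15 fell, and over all genes 2953 were higher and 1332 lower in place of 2359 and 2077. Among protein-coding genes 33.6% were called. With control replicate 2 left out as well, 13 rose and 13 fell, on 1 control whose spread is assumed to be like that of the Caba-780 libraries. Of the 40, 21 were called whichever further library was left out and 19 were not. Of the 40, 8 rose and 9 fell by at least 2-fold. The rule favours such genes: 6 of the 8 had a mean of 30.3 to 45.7 in control replicates 1 and 2 and reached 50 only through the Caba-780 libraries, and MIR4458HG and AL035071.1 among the 9 had Caba-780 means of 28.6 and 41.2 and reached it only through control. These counts are therefore no support for a difference of lincRNAs as a group. The values of the groups did not overlap for 26 higher and 37 lower lincRNAs, where that held for 56.5% of all genes (28.0% higher and 28.4% lower). With 6 libraries it held for 23 higher and 14 lower lincRNAs, against 31.3% of all genes (17.9% higher and 13.4% lower). The median log2 change, which is Caba-780 over control throughout, was -0.11 over the 109 lincRNAs and -0.02 over all genes tested; with 6 libraries the medians were -0.01 and 0.10. Of the 40, 37 had the same sign with 6 libraries. The other 3, LINC02001, AC007383.2 and AC245297.3, are among the 9 with 0 reads in control replicate 3 and changed sign. All 14 lincRNAs that DESeq2 called with 6 libraries were also called in the same direction without control replicate 3. In the rest of the text, "rose" and "fell" refer to an adjusted p under 0.05 without control replicate 3, which leaves 2 controls.

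**Figure D1:**
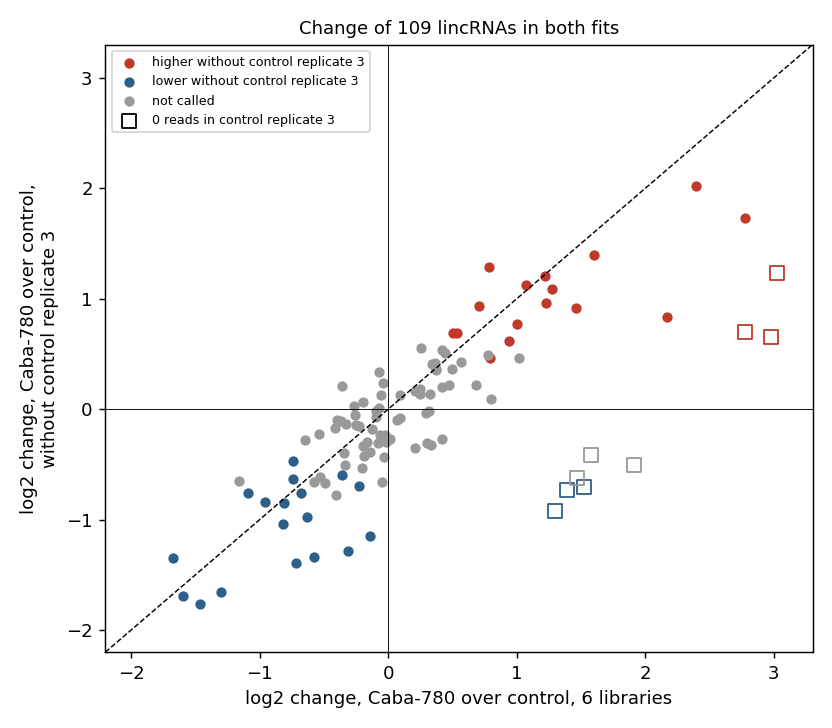
Log2 change of each of the 109 lincRNAs, Caba-780 over control, with all 6 libraries (x axis) and without control replicate 3 (y axis); the dashed line marks equal values. Filled points are coloured by the call without control replicate 3 (19 higher, 21 lower, 69 not called), and open squares are the 9 genes with 0 reads in that library, of which 6 lie at a positive change on the x axis and a negative one on the y axis.

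The share of the lincRNAs called grew with level. Among the 50 lincRNAs with a mean of 50 to 100 normalized counts, 12 were called. Among the 48 with a mean of 100 to 500, 20 were called, and among the 11 above that, 8 were. Over all genes tested without control replicate 3, whatever their level, 32.4% were called. Shares of all genes within these ranges were not computed, so the growth cannot be read as a trait of lincRNAs. The standard error of the log2 change had a median of 0.24 without control replicate 3 and of 0.32 with it. Within groups, the median standard deviation of log2 values was 0.24 in the Caba-780 libraries and 0.47 in the control libraries, and 0.16 in control replicates 1 and 2 alone.

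The summed level of the 109 lincRNAs took 0.178%, 0.195% and 0.171% of the reads in genes in the Caba-780 libraries, and 0.199%, 0.184% and 0.174% in the control libraries. These ranges overlap (exact permutation test, two-sided, p = 0.7). Summed over normalized counts, the Caba-780 libraries had 25466, 28181 and 24587, and the control libraries had 30423, 28525 and 28616. On that scale the groups do not overlap (exact permutation test, two-sided, p = 0.1, the smallest that 3 against 3 allows). The order rests on NORAD, MALAT1 and NEAT1. Without these 3, the sum took 0.127%, 0.134% and 0.123% of reads in the Caba-780 libraries and 0.117%, 0.120% and 0.0933% in the control libraries, higher with Caba-780 and with no overlap (exact permutation test, two-sided, p = 0.1). In normalized counts that sum averaged 18414 with Caba-780 and 17300.3 in control (exact permutation test, two-sided, p = 0.5). The rule chose the genes by their level in every Caba-780 library but not in control replicate 3. That library had the lowest share, 0.0933%, and NORAD, MALAT1 and NEAT1 are the genes with the highest mean counts. The tests of this paragraph thus reuse values of the rule and cannot decide whether the summed level differs between the groups.

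The 4 listed snoRNA hosts are SNHG15, SNHG8, EPB41L4A-AS1 and SNHG4. The list leaves out LINC02001, whose span holds the annotated snoRNA SNORD7 and which is counted among the 105 others. A snoRNA host gene carries one or more snoRNAs, mostly within introns, and the snoRNAs in turn guide the chemical modification of ribosomal and other RNAs. The spliced remainder of many such genes is known to be broken down by nonsense-mediated decay. Of the 4 listed hosts, 3 rose and 1 fell without control replicate 3, where 17.2% of all genes were higher and 15.2% lower. With 6 libraries none of the 4 passed in limma, and DESeq2, which called 8.83% of all genes, called SNHG8 and SNHG4. Their median log2 change was 0.92 without control replicate 3 and 0.97 with it.

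SNHG15 (ENSG00000232956; chromosome 7, 44983023 to 44986961, minus strand), whose span holds SNORA9, had 1050.3, 909.9 and 1156 normalized counts in the Caba-780 libraries, against 538, 559 and 176 in the control libraries. All Caba-780 values lie above all control values. The means were 1039 ± 123 with Caba-780 and 424 ± 215 in control (SD, n = 3 each). The log2 change was 0.91 ± 0.15 (SE; limma adjusted p = 3.31e-05) without control replicate 3 and 1.46 ± 0.46 with it (adjusted p = 0.207).

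SNHG8 (ENSG00000269893; chromosome 4, 118278709 to 118279823, plus strand), whose span holds SNORA24, had 361, 318 and 445 normalized counts with Caba-780, against 188, 191 and 109 in control. Here too the groups do not overlap, and control replicate 3 is the lowest. The log2 change was 0.96 ± 0.18 (SE; limma adjusted p = 0.000153) without that library and 1.23 ± 0.29 with it (adjusted p = 0.129). In DESeq2 SNHG8 was called with all 6 libraries.

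EPB41L4A-AS1 (chromosome 5, 112160526 to 112164276, plus strand), which carries SNORA13, had 388, 369.6 and 437 normalized counts with Caba-780, against 175, 246 and 334 in control. Control replicate 3 is the highest of the controls and still below every Caba-780 library. EPB41L4A-AS1 had a log2 change of 0.94 ± 0.18 (SE; limma adjusted p = 0.000213) without it and 0.71 ± 0.28 with it (adjusted p = 0.27). Of its exon bases, 49.6% lie opposite exons of a gene on the other strand, and the strand setting of the counting is not given in the sources used here, so reads of the pair cannot be told apart.

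SNHG4 (ENSG00000281398; chromosome 5, 139274102 to 139284899, plus strand), which carries SNORA74A and SNORA74D, went the other way. It had 211, 153 and 158 normalized counts with Caba-780, against 286, 336 and 289.8 in control, with no overlap. Its log2 change was -0.85 ± 0.19 (SE; limma adjusted p = 0.00128) without control replicate 3 and -0.81 ± 0.22 with it (adjusted p = 0.157). Its body overlaps the coding genes MATR3 and SIL1, and 14% of its exon bases are shared with a gene on the same strand.

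The snoRNAs of SNHG8 and SNHG15, the hosts among the 6 highest levels per kilobase, are shown because hosting them is what the genes are named for. Both are of the box H/ACA class, which guides the conversion of uridine to pseudouridine, and the capitals mark the ACA box that lies 3 bases before the 3′ end. SNORA24 lies at chr4:118279190-118279320 on the plus strand and is 131 bases long, and SNORA9 lies at chr7:44985378-44985510 on the minus strand and is 133 bases long. Both sequences are from GENCODE release 29 on GRCh38.
SNORA24: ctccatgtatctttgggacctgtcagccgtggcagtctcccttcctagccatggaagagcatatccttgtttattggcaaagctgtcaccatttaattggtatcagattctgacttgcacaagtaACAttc
SNORA9: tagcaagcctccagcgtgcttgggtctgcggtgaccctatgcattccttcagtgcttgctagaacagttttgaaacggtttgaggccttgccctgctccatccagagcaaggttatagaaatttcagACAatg
All bases of both snoRNAs are annotated as exon of the host in at least 1 transcript, so reads of the host and of the snoRNA can overlap. Neither snoRNA is listed as a row of its own.

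The same list of symbols holds another 14 snoRNA hosts with a mean of at least 50 and other biotypes, given for comparison. Of these 14, 8 rose and 4 fell, so that of the 18 listed hosts 11 rose, 5 fell and 2 were not called. Over all genes 17.2% were higher and 15.2% lower. SNHG12 had 880.0, 991 and 1086 normalized counts with Caba-780, against 157, 201 and 0 in control. SNHG17 had 1524, 1335 and 1629 with Caba-780, against 345, 454 and 30.5 in control. In limma ZFAS1 was the only one of the 18 hosts that passed with all 6 libraries, with 1704, 2009 and 2243 normalized counts with Caba-780, against 599, 879 and 809.7 in control. Its log2 change was 1.39 ± 0.22 (SE; limma adjusted p = 0.049). The fallers were DANCR, SNHG14, SNHG16 and SNHG3, besides SNHG4. Control replicate 3 lay below the other controls in 13 of the 18 hosts, at 0 to 1.59 times their mean with a median of 0.377 times. With and without that library the log2 change was 4.95 and 2.46 in SNHG12, 3.13 and 1.91 in SNHG17, and 1.92 and 0.63 in SNHG7.

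**Figure D2:**
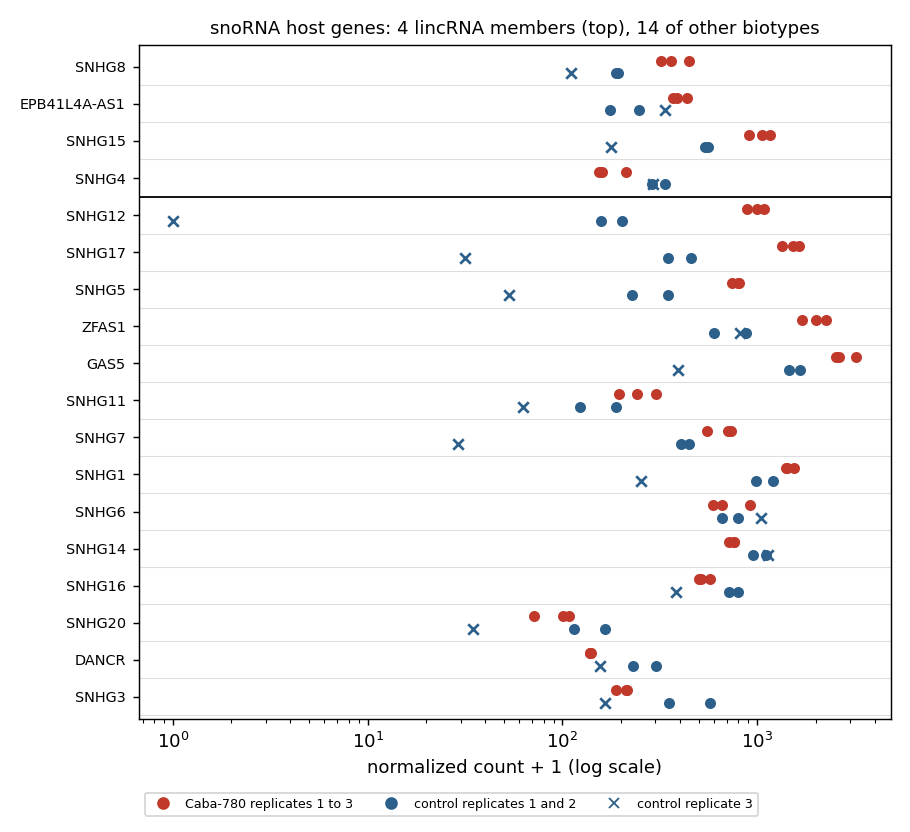
Normalized count plus 1 in every library (log scale) for the 18 listed snoRNA hosts. The 4 lincRNAs are above the line and the 14 of other biotypes below it, each block ordered by the log2 change without control replicate 3. Red points are the 3 Caba-780 libraries, blue points are control replicates 1 and 2, and the cross is control replicate 3, which lies below the other controls in 13 of the 18 genes.

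The miRNA hosts form the second group with a shared role. Such a gene is transcribed as a long RNA from which a hairpin is excised and processed into a mature miRNA, a short RNA that pairs with target mRNAs through its seed. The list of miRNA hosts has 7 of the 109 genes. It leaves out 5 others whose span holds an annotated miRNA, AC016205.1, CYTOR, FTX, MUC20-OT1 and NEAT1. Without control replicate 3, PVT1, MIR3142HG and MIR4435-2HG rose, MIR137HG, MIR4458HG and MIR22HG fell, and MIR222HG was not called. None passed with 6 libraries in limma. With 6 libraries DESeq2, which called 8.83% of all genes, called PVT1, MIR137HG, MIR3142HG and MIR4458HG. Over all genes 17.2% were higher and 15.2% lower without control replicate 3. MIR3142HG, with a mean of 30.3 in the controls that the rule used, met the rule only through the Caba-780 libraries. MIR4458HG, with a Caba-780 mean of 28.6, met it only through control. Whether miRNA hosts differ as a group from genes at large was not tested. The values are those of the host transcripts, and the mature miRNAs were not analysed here.

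The mature sequences are shown 5′ to 3′ from RefSeq (GRCh38.p14), with the seed (bases 2 to 8) in capitals, because the seed is the part of a miRNA that chiefly selects its targets.
hsa-miR-146a-5p: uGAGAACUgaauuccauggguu
hsa-miR-4435: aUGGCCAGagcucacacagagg
hsa-miR-137-3p: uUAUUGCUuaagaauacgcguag
hsa-miR-4458: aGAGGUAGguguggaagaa
hsa-let-7a-5p: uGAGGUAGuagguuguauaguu
hsa-miR-22-3p: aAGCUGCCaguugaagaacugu
hsa-miR-221-3p: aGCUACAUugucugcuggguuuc
hsa-miR-222-3p: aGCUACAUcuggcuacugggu
The host of miR-146a-5p is MIR3142HG, that of miR-4435 is MIR4435-2HG, and miR-137-3p, miR-4458 and miR-22-3p come from the hosts that carry their numbers. Both miR-221-3p and miR-222-3p lie in MIR222HG and share the seed GCUACAU. The seed GAGGUAG of miR-4458 is that of the let-7 family, and 11 mature miRNAs of the table have it, of which 8 are named let-7. The member let-7a-5p is printed only for that comparison and none of the 109 genes carries it.

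MIR137HG (ENSG00000225206; chromosome 1, 97933474 to 98049863, minus strand) had the largest fall of the 21. It carries miR-137 in an exon (mature 3p arm at chr1:98046091-98046113), a miRNA known as a regulator in neurons. MIR137HG had 133, 161 and 154 normalized counts with Caba-780, against 518, 500.03 and 268 in control. All Caba-780 values lie below all control values, and control replicate 3 is the lowest of the controls. Its log2 change was -1.77 ± 0.18 (SE; limma adjusted p = 1.35e-08) without that library and -1.46 ± 0.30 with it (adjusted p = 0.104). The gene overlaps the coding gene DPYD on the same strand, whose log2 change was 0.29 ± 0.15 (adjusted p = 0.146 without control replicate 3).

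MIR4458HG (ENSG00000247516; chromosome 5, 8450743 to 8463095, plus strand) had 31.4, 37.7 and 16.7 normalized counts with Caba-780, against 71.8, 112 and 73.3 in control. The groups do not overlap in all 6 libraries. MIR4458HG had a log2 change of -1.69 ± 0.35 (SE; limma adjusted p = 0.00047) without control replicate 3 and -1.60 ± 0.42 with it (adjusted p = 0.15).

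MIR22HG (ENSG00000186594; chromosome 17, 1711493 to 1717174, minus strand) carries miR-22, which is found in many tissues. It had 305, 382 and 339 normalized counts with Caba-780, against 710.0, 800.5 and 92.5 in control. Control replicate 3 lies below every Caba-780 library while the other controls lie above them. MIR22HG had a log2 change of -1.15 ± 0.16 (SE; limma adjusted p = 2.97e-06) without that library and -0.14 ± 0.81 with it (adjusted p = 0.938). The coding gene WDR81, which it overlaps, changed by -0.07 (adjusted p = 0.776 without control replicate 3).

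MIR222HG (chromosome X, 45745211 to 45770274, minus strand) had 96.8, 152 and 81.5 normalized counts with Caba-780, against 144, 159.5 and 0 in control. Its log2 change was -0.51 ± 0.24 without control replicate 3 (SE; limma adjusted p = 0.107) and 1.91 ± 1.93 with it (adjusted p = 0.629). The sign therefore rests on 1 library with 0 reads.

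MIR3142HG (ENSG00000253522; chromosome 5, 160438594 to 160487426, plus strand) carries miR-146a in an exon (chr5:160485372-160485393). That miRNA is known to be induced by NF-kB and to target the adaptors IRAK1 and TRAF6 of Toll-like receptor signalling. MIR3142HG had 66.3, 87.7 and 75.6 normalized counts with Caba-780, against 19.4, 41.2 and 18.0 in control. The groups do not overlap in all 6 libraries. MIR3142HG had a log2 change of 1.39 ± 0.32 (SE; limma adjusted p = 0.00133) without control replicate 3 and 1.60 ± 0.42 with it (adjusted p = 0.148). The call was lost when control replicate 1 was left out as well, with a log2 change of 0.87 (adjusted p = 0.0648).

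The RefSeq promoter window of MIR3142HG is shown because an NF-kB site has been described for the miR-146a gene. The window is chr5:160468001-160468300 on the plus strand of GRCh38.p14, 250 bases before to 50 after the RefSeq start, which lies inside the longer GENCODE gene. The motif searched on both strands was the NF-kB consensus of 10 bases, which allows more than 1 base at several positions. The capitals mark the match, GGGACTTTCC, whose first base lies 120 bases before the start.
MIR3142HG promoter: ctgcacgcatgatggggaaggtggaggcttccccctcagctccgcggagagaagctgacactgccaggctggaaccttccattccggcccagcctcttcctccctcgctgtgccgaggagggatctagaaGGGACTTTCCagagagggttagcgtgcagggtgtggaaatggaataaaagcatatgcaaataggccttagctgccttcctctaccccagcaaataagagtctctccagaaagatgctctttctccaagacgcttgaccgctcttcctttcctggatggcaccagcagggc
Of the 109 lincRNAs, 46 had a RefSeq promoter by symbol, and the motif was in 3 of them, those of MIR3142HG, LINC00265 and SNHG4. It was in 5.91% of all 35116 promoters of the same length.

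PVT1 (ENSG00000249859; chromosome 8, 127794533 to 128101253, plus strand) carries several miRNAs and lies downstream of the oncogene MYC, a neighbour with which it is often amplified in tumours. It had 734, 792 and 711 normalized counts with Caba-780, against 220.2, 226 and 24.8 in control. The groups do not overlap, and control replicate 3 is far below the other controls. PVT1 had a log2 change of 1.73 ± 0.15 (SE; limma adjusted p = 1.14e-09) without that library and 2.77 ± 0.84 with it (adjusted p = 0.192). In the authors' deposited table the adjusted p of PVT1 is 0.0146. MYC, whose start lies 59099 bases upstream on the same strand, had 2129, 1805 and 1847 normalized counts with Caba-780, against 5063, 5523 and 2709 in control. MYC fell, by 1.46 on the log2 scale with an SE of 0.14 (limma adjusted p = 2.85e-09), and with 6 libraries its log2 change was -1.14 (adjusted p = 0.148). PVT1 and MYC thus moved in opposite directions in the 5 libraries.

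MIR4435-2HG (chromosome 2, 111036776 to 111523376, minus strand) and CYTOR (chromosome 2, 87454781 to 87636740, plus strand) are near-identical copies on one chromosome, and both hold a copy of miR-4435. MIR4435-2HG had 781, 871 and 797 normalized counts with Caba-780, against 525, 484 and 744 in control. CYTOR had 562, 590.3 and 621 with Caba-780, against 386, 348 and 499.6 in control. In both genes every Caba-780 library lies above every control library. The log2 change without control replicate 3 was 0.69 ± 0.15 in each (SE; limma adjusted p = 0.000673 for MIR4435-2HG and 0.00108 for CYTOR), and 0.51 and 0.54 with 6 libraries. Reads can be shared between the copies, so neither value is certain to belong to its own gene.

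AF117829.1 (ENSG00000251136; chromosome 8, 89609409 to 89757727, minus strand), a transcript of no known role, had the largest rise of the 19. It had 184, 214 and 162 normalized counts with Caba-780, against 36.9, 54.5 and 20.3 in control. With a mean of 45.7 in control replicates 1 and 2, it met the rule only through the Caba-780 libraries. Every Caba-780 library lies above every control library. The log2 change was 2.02 ± 0.24 (SE; limma adjusted p = 1.93e-07) without control replicate 3 and 2.39 ± 0.40 with it (adjusted p = 0.0582). It is the member that limma-voom called with all 6 libraries, and its adjusted p in the authors' deposited table is 1.42e-05. Its start lies 20 bases from that of RIPK2, which encodes a kinase that passes signals from the NOD receptors to NF-kB, on the opposite strand. RIPK2 had 774, 913 and 881 normalized counts with Caba-780, against 519, 549 and 1085 in control, so that its groups overlap through control replicate 3. RIPK2 rose by 0.68 ± 0.15 on the log2 scale without that library (SE; limma adjusted p = 0.000912), while with it the change was 0.34 (adjusted p = 0.606).

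The other large rises were in genes with little known about them. LINC00265 (ENSG00000188185; chromosome 7, 39733632 to 39793092, plus strand) had 122, 139.5 and 99.2 normalized counts with Caba-780, against 62.1, 42.2 and 49.6 in control. Its groups do not overlap in 6 libraries, and its log2 change was 1.202 ± 0.25 (SE; limma adjusted p = 0.00066) without control replicate 3 and 1.22 ± 0.28 with it (adjusted p = 0.124). SFTA1P (chromosome 10, 10784437 to 10794980, minus strand), named as a surfactant-associated pseudogene, had 77.1, 87.7 and 59.9 with Caba-780, against 30.1, 37.0 and 37.2 in control. With a mean of 33.6 in control replicates 1 and 2, SFTA1P met the rule only through the Caba-780 libraries. Here control replicate 3 lies beside control replicate 2, and the log2 change was 1.13 ± 0.29 (SE; limma adjusted p = 0.00404) without it and 1.07 with it (adjusted p = 0.176). LINC01588 (chromosome 14, 49927571 to 50092643, minus strand) had 74.4, 53.7 and 70.7 with Caba-780, against 32.0, 28.8 and 20.3 in control. LINC01588, with a mean of 30.4 in control replicates 1 and 2, also met the rule only through the Caba-780 libraries. Its log2 change was 1.09 ± 0.30 (SE; limma adjusted p = 0.00657) without control replicate 3 and 1.27 with it (adjusted p = 0.162), and the call was lost without control replicate 2 as well (adjusted p = 0.0542).

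AC009404.1 and AC073335.2 show how much control replicate 3 can weigh on a single gene. AC009404.1 (chromosome 2, 117833937 to 117841658, plus strand) had 69.0, 97.1 and 67.7 normalized counts with Caba-780, against 38.8, 24.7 and 89.1 in control. AC073335.2 (chromosome 7, 66902857 to 66906297, plus strand) had 84.2, 123 and 85.4 with Caba-780, against 47.5, 34 and 0 in control. In AC009404.1 control replicate 3 lies within the Caba-780 range, and in AC073335.2 it has no reads. The log2 change of AC009404.1 was 1.28 ± 0.30 (SE; limma adjusted p = 0.00172) without that library and 0.79 ± 0.51 with it (adjusted p = 0.473). Without control replicate 2 as well it was 0.97 (adjusted p = 0.0532), and the call was lost. That of AC073335.2 was 1.23 ± 0.27 (SE; limma adjusted p = 0.00107) without it and 3.02 ± 1.45 with it (adjusted p = 0.353). The means of control replicates 1 and 2 were 31.7 in AC009404.1 and 40.7 in AC073335.2. Both genes thus met the rule only through the Caba-780 libraries.

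**Figure D3:**
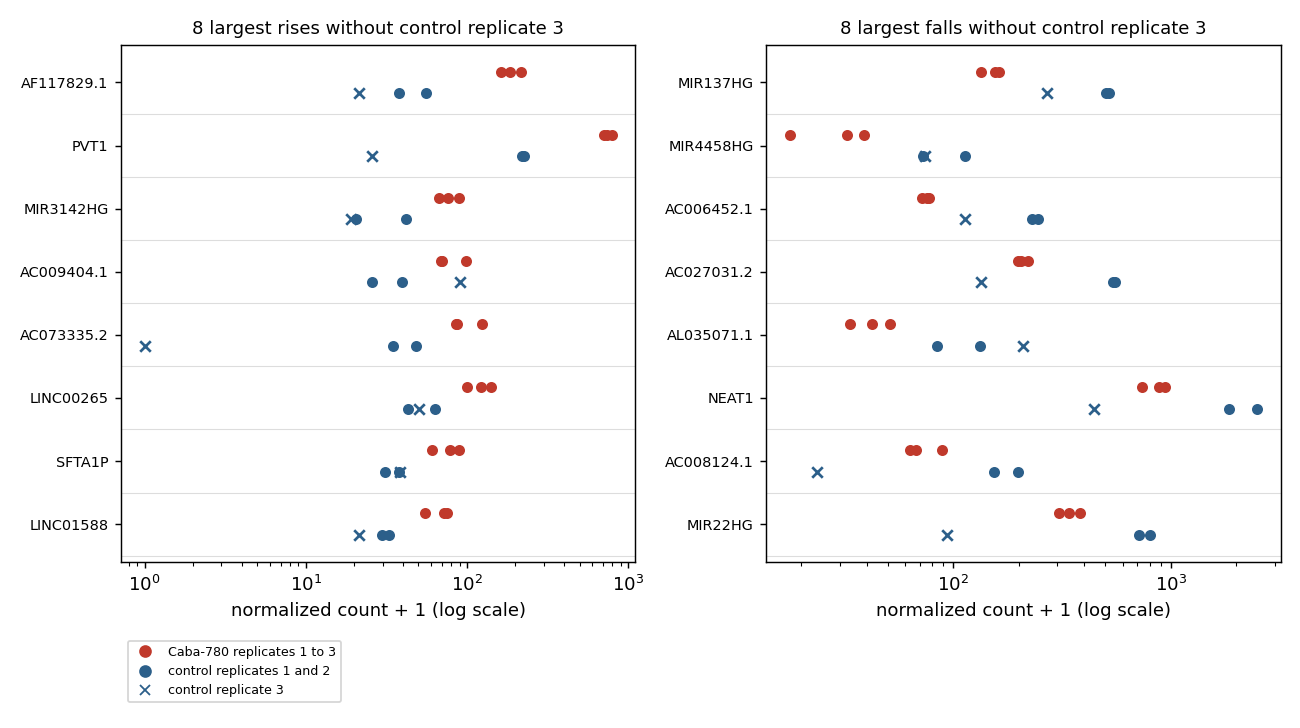
Normalized count plus 1 in every library (log scale) for the 8 lincRNAs with the largest rise (left) and the 8 with the largest fall (right) among those called without control replicate 3 with no overlap over the 5 libraries. Red points are the 3 Caba-780 libraries, blue points control replicates 1 and 2, and the cross control replicate 3, which for AC027031.2, NEAT1, AC008124.1 and MIR22HG lies below the Caba-780 libraries.

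Among the fallers without a miRNA, AC006452.1 (ENSG00000285904; chromosome 7, 140640909 to 140669476, plus strand) had 70.8, 76.4 and 74.6 normalized counts with Caba-780, against 228, 243 and 112 in control. The 3 Caba-780 values are close together and below every control. AC006452.1 had a log2 change of -1.66 ± 0.21 (SE; limma adjusted p = 9.93e-07) without control replicate 3 and -1.30 ± 0.35 with it (adjusted p = 0.155). The gene overlaps the body of the coding gene DENND2A. AL035071.1 (chromosome 20, 32856621 to 32858751, plus strand) had 41.2, 49.97 and 32.4 normalized counts with Caba-780, against 83.4, 132 and 207.5 in control. With a Caba-780 mean of 41.2, it met the rule only through control. Its groups do not overlap either, with control replicate 3 the highest, and the log2 change was -1.35 ± 0.29 (SE; limma adjusted p = 0.000829) without it and -1.67 ± 0.40 with it (adjusted p = 0.129). Without control replicate 2 as well it was -1.02 (adjusted p = 0.0644), and the call was lost.

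In AC027031.2 and AC008124.1 the direction holds only against control replicates 1 and 2. AC027031.2 (chromosome 8, 106270144 to 106272899, plus strand) had 204, 197 and 219.9 normalized counts with Caba-780, against 551, 541 and 133 in control. Its log2 change was -1.40 ± 0.17 (SE; limma adjusted p = 2.74e-07) without control replicate 3 and -0.72 ± 0.56 with it (adjusted p = 0.544). AC008124.1 (chromosome 12, 45718046 to 45727775, minus strand) had 87.8, 66.0 and 61.9 with Caba-780, against 153, 197.5 and 22.6 in control. Control replicate 3 is the lowest library in both genes. The log2 change of AC008124.1 was -1.28 ± 0.24 (SE; limma adjusted p = 0.000155) without it and -0.32 ± 0.80 with it (adjusted p = 0.851).

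The best known of the 109 are NEAT1, MALAT1 and NORAD. NEAT1 and MALAT1 are transcribed from neighbouring loci on chromosome 11; NEAT1 is the scaffold of paraspeckles and MALAT1 sits at nuclear speckles. MALAT1 lacks a genuine poly(A) tail, as does the long form of NEAT1, and whether poly(A) RNA was selected is not given in the sources used here. NEAT1 (ENSG00000245532; chromosome 11, 65422774 to 65445540, plus strand) had 885, 941 and 737 normalized counts with Caba-780, against 2495, 1846 and 442 in control. Against control replicates 1 and 2 it fell, with a log2 change of -1.33 ± 0.15 (SE; limma adjusted p = 1.82e-07), and with all 6 libraries the change was -0.58 ± 0.63 (adjusted p = 0.654). MALAT1 (chromosome 11, 65497688 to 65506516, plus strand) had 2441, 2882 and 2163 with Caba-780, against 3711, 2497 and 2329 in control. The MALAT1 groups overlap, and its log2 change of -0.30 ± 0.16 did not pass (SE; limma adjusted p = 0.16 without control replicate 3, 0.727 with it). Of the lists that hold MALAT1 or NEAT1, nuclear architecture (MALAT1, NEAT1) had 1 fall and p53 targets (NEAT1, TP53TG1) had 1 fall, both NEAT1. LincRNAs linked to bladder cancer (MALAT1, PVT1) had 1 rise, PVT1. In limma with 6 libraries none of these lists had a call. Over all genes 17.2% were higher and 15.2% lower without control replicate 3. Whether such short lists differ from genes at large was not tested. TP53TG1 had 52.9, 53.7 and 74.6 normalized counts with Caba-780, against 76.6, 94.7 and 59.8 in control, and did not pass (log2 change -0.51 ± 0.27, SE; limma adjusted p = 0.151 without control replicate 3).

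NORAD (ENSG00000260032; chromosome 20, 36045622 to 36050960, minus strand) is a cytoplasmic lincRNA known for binding the Pumilio proteins, repressors of mRNAs, through repeated copies of their motif. It had 3907, 5041 and 3995 normalized counts with Caba-780, against 6301, 5557 and 10486 in control. Every Caba-780 library lies below every control library. NORAD fell by the smallest amount of the 21 fallers, with a log2 change of -0.47 ± 0.14 (SE; limma adjusted p = 0.0125) without control replicate 3 and -0.74 ± 0.27 with it (adjusted p = 0.253). The call was also lost when control replicate 1, Caba-780 replicate 1 or Caba-780 replicate 3 was left out besides control replicate 3 (adjusted p = 0.124, 0.0726 and 0.0523).

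A stretch of 120 bases of NORAD is shown to make the Pumilio repeats visible. The motif searched on the sense strand was TGTANATA, where N is any base, and capitals mark its matches. The stretch runs from base 1129 to base 1248 of the transcript (chr20:36049713-36049832, minus strand, GENCODE release 29 on GRCh38).
NORAD stretch: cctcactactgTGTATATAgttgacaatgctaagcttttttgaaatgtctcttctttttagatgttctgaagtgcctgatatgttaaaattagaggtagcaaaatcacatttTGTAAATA
The whole transcript of 5339 bases holds 15 matches, of which 2 are in this stretch. Of the longest transcripts of the 109 lincRNAs, 25 hold at least 1 match.

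The other lincRNAs that rose without control replicate 3 changed by less. LINC00973 had 128, 160.3 and 96.2 normalized counts with Caba-780, against 62.1, 79.2 and 3.38 in control, and a log2 change of 0.83 ± 0.25 (SE; limma adjusted p = 0.0109), against 2.17 ± 1.10 with 6 libraries (adjusted p = 0.371). MUC20-OT1 had 278, 353 and 245 with Caba-780, against 172, 167 and 104 in control, with no overlap in 6 libraries, and a log2 change of 0.77 ± 0.19 (SE; limma adjusted p = 0.0025), against 1.00 with 6 libraries (adjusted p = 0.173). AC006449.6, LINC00623, AC060780.1 and BX890604.2 had log2 changes of 0.70, 0.65, 0.62 and 0.47. With 6 libraries these were 2.78 ± 1.67, 2.98 ± 1.85, 0.94 and 0.79, and none passed (limma adjusted p = 0.447, 0.46, 0.235 and 0.263). Of the genes of this paragraph, all but MUC20-OT1 lost the call when some further library was left out. AC006449.6 and LINC00623 have 0 reads in control replicate 3, where the other controls had 68.9 and 81.3 normalized counts in AC006449.6 and 136 and 115 in LINC00623. These genes and the fallers of the next paragraph, like CYTOR, MYC, BAIAP2-DT, AC007383.2, EBLN3P and CRNDE, were chosen after their values were seen.

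Of the fallers not yet described, LINC01139 (chromosome 1, 238476542 to 238486054) had 132, 134 and 92.3 normalized counts with Caba-780, against 229, 258 and 153 in control. Its groups do not overlap in 6 libraries, and its log2 change was -1.04 ± 0.21 (SE; limma adjusted p = 0.0004), and -0.82 with 6 libraries (adjusted p = 0.24). AC084033.3, AC026401.3, AL365203.2 and LINC00294 also had no overlap in 6 libraries, with log2 changes of -0.84, -0.76, -0.76 and -0.64, and of -0.96, -0.68, -1.09 and -0.74 with 6 libraries. In PAXIP1-AS1 and OLMALINC, with log2 changes of -0.70 and -0.60, and of -0.22 and -0.36 with 6 libraries, control replicate 3 lies within or below the Caba-780 libraries. AC245297.3 and LINC02001 fell by 0.73 and 0.70 on the log2 scale and have 0 reads in control replicate 3, so that with 6 libraries their changes were 1.39 and 1.52. AC245297.3, with a Caba-780 mean of 49.3, met the rule only through control. Of the genes of this paragraph, only LINC01139 kept its call whichever further library was left out.

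The 69 lincRNAs that were not called without control replicate 3 had log2 changes between -0.78 (PSMG3-AS1) and 0.55 (AC016205.1). They include some of the most abundant. EBLN3P had 1068, 1228 and 1029.9 normalized counts with Caba-780, against 1209, 1238 and 1528 in control. CRNDE, a lincRNA often raised in tumours, had 462, 487 and 485 with Caba-780, against 463, 593 and 789 in control. Both sets of values overlap, and the log2 changes were -0.15 ± 0.14 for EBLN3P and -0.13 ± 0.16 for CRNDE (SE; limma adjusted p = 0.461 and 0.554 without control replicate 3), and -0.25 and -0.33 with 6 libraries (adjusted p = 0.514 for both). AC002401.4, the short gene with a high level per kilobase, had a log2 change of -0.29 ± 0.20 (SE; limma adjusted p = 0.27).

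The position of the 109 genes was not used by the rule. Of them, 29 have a protein-coding gene that starts within 5 kb of their own start on the opposite strand, an arrangement in which both transcripts can share a promoter region. In 18 of these 29 pairs the lincRNA and the coding gene had the same sign of change without control replicate 3. Across the pairs, which share the same libraries, Pearson's r of the log2 changes was 0.04 and Spearman's rho was 0.02, given as a description. Of the 29 lincRNAs with such a neighbour 8 were called, and of the 80 without one 32 were, where 32.4% of all genes were called. The difference between these shares was not tested.

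In 3 pairs both genes were called. AF117829.1 and RIPK2 rose together, as given above. BAIAP2-DT (chromosome 17, 81029130 to 81034881, minus strand) had 360.3, 234 and 310.2 normalized counts with Caba-780, against 646, 532 and 282 in control. BAIAP2, which encodes an adaptor of the actin cytoskeleton and starts 241 bases away, had 988, 928 and 1092 with Caba-780, against 489.9, 487 and 219.9 in control. Against control replicates 1 and 2 the lincRNA fell while its neighbour rose, with log2 changes of -0.98 ± 0.18 and 1.03 ± 0.15 (SE; limma adjusted p = 0.000132 and 4.19e-06). With 6 libraries they were -0.63 and 1.42 (adjusted p = 0.423 and 0.129). For BAIAP2 the groups do not overlap in 6 libraries, whereas BAIAP2-DT in control replicate 3 lies within the Caba-780 range. AC007383.2 and INO80D, which encodes a subunit of a chromatin remodeller, also moved apart, with log2 changes of -0.93 ± 0.26 and 0.77 ± 0.18 (SE; limma adjusted p = 0.00855 and 0.00213). With 6 libraries they were 1.30 and 0.24 (adjusted p = 0.722 and 0.807). In control replicate 3 AC007383.2 has 0 reads and INO80D has 928 normalized counts, which is above the Caba-780 values of 483, 701 and 421. AC007383.2 overlaps the body of INO80D, and 33.6% of its exon bases lie opposite exons of a gene on the other strand. As the strand setting of the counting is not given, reads of such overlaps cannot be told apart.

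**Figure D4:**
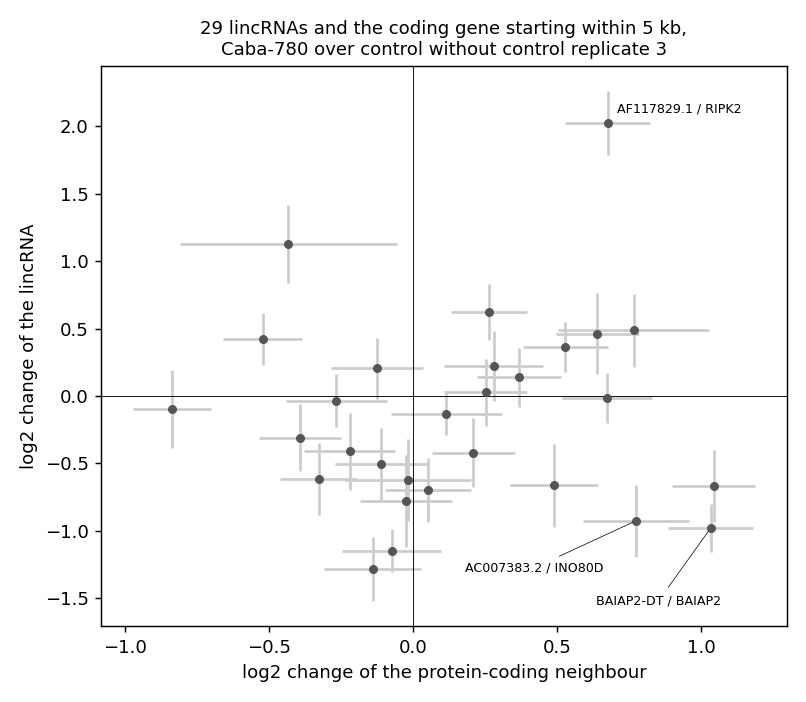
Log2 change without control replicate 3, Caba-780 over control, of 29 lincRNAs (y axis) against that of the protein-coding gene that starts within 5 kb on the opposite strand (x axis); bars are SE from limma. The 3 labelled pairs are those in which both genes were called: AF117829.1 and RIPK2 in the upper right, and BAIAP2-DT and AC007383.2 with their neighbours in the lower right.

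Overlap with other genes limits how exactly reads can be given to a lincRNA. Of the 109, 35 share exon bases with a gene on the opposite strand, 14 of them over more than 10% of their exon bases. Exon bases are shared with a gene on the same strand in 23, some of which are also among the 35, and 26 overlap the body of a protein-coding gene.

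At the edge of the rule, the lincRNAs just inside were AC012306.2 with a mean of 50.1 normalized counts, PSMG3-AS1 with 51.8 and LINC01588 with 51.9. Those just outside were PICSAR with 49.999, RAB30-AS1 with 49.9932 and ERICD with 49.9.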

How the data were processed

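RNA-seq of T24 cells was analysed from the 1 table the authors deposited, with 3 Caba-780 and 3 control libraries grouped by title. Per the submitters' processing notes, the hg38 build was used with DESeq2 1.20.0, HISAT2 2.0.5, fastp and featureCounts 1.5.0-p3; the tools' settings, strand included, and the annotation are not given in the sources read. Per the labels' protocols, libraries were made from total RNA with an NEBNext Ultra kit. Each deposited library column is a normalized signal, a read count over a size factor of that library; dividing by the library's smallest step gave whole reads for 100% of values (tolerance 1e-06). The deposited group columns are the authors' means of them. The authors' deposited log2 fold changes and p-values come from their own comparison. The deposited gene length (unit other) is in bases.

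The design named edgeR for raw counts and limma for normalized values, and the deposited unit called for limma. Values were compared as log2(normalized count + 1) with limma 3.58.1 in R 4.3.3 (trend and robust moderation), over all genes that reached 10 normalized counts in 3 or more libraries; all 109 lincRNAs passed this filter in both fits. Tests were two-sided with Benjamini-Hochberg adjustment over all genes tested, at 0.05. The pseudocount understates the change of low genes. The whole reads were also tested with edgeR 4.0.16, DESeq2 1.42.0 and limma-voom. Gene positions and overlaps come from GENCODE release 29. The limma step was tested on simulated data.

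The genes and lists were chosen with earlier results of these data known. Genes named with values were the 8 largest rises and 8 largest falls without control replicate 3 with no overlap between groups, the snoRNA hosts, the 6 highest per kilobase, genes of the fixed lists (miRNA hosts, nuclear architecture, bladder cancer, p53 targets and NF-kB, the last with only MIR3142HG, which rose), the 3 rows on each side of the mean of 50, and coding neighbours of named genes that start within 5 kb on the opposite strand. The scaling, filter, pseudocount, test, threshold and libraries were varied. The settings without control replicate 3 other than the fit itself, edgeR, DESeq2 and the block were chosen after seeing the data.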

Additional observations from a re-analysis of the deposited data

How the results depend on the processing

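The calls in limma depend on whether control replicate 3 is left out. With all 6 libraries 0 lincRNAs were called in either direction by limma, with library totals or TMM scaling, and by edgeR. Leaving out each library in turn gave 0 to 19 higher and 0 to 21 lower, the upper ends being without control replicate 3. A pseudocount of 5, limma-voom and a threshold of 0.10 each gave 1 higher, one of the 105 other lincRNAs. DESeq2 gave 8 higher and 6 lower, of which 1 higher and 1 lower were snoRNA hosts and 7 higher and 5 lower were others. Without control replicate 3, edgeR gave 20 higher and 20 lower and DESeq2 19 higher and 17 lower; among snoRNA hosts both gave 3 higher and 1 lower, and among the others edgeR gave 17 and 19 and DESeq2 16 and 16, against 16 and 20 in limma. Leaving out a further library gave 13 to 19 higher and 13 to 21 lower (others 10 to 16 and 12 to 20), with the lowest without control replicate 2, where the lone control is assumed to vary like the Caba-780 libraries. Library totals gave 21 higher and 15 lower. A threshold of 0.01 gave 13 lower, 12 of them others. Of the 40 lincRNAs, 36 were also called by edgeR, DESeq2 and limma-voom, and 21 with each further library left out.

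Correlations of same-numbered deviations from the group means were 0.303, -0.334 and -0.101 over 13847 genes. They cannot decide whether the replicate numbers pair the libraries, because control replicates 1 and 2 gave similar values. With Caba-780 replicate 1 these were 0.303 and 0.265, and with Caba-780 replicate 2 they were -0.297 and -0.334. The replicate block gave 0 calls with 6 libraries, and 20 higher and 21 lower without control replicate 3 (3 and 1 among snoRNA hosts, 17 and 20 among others).

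The median change of the 109 was -0.01, and -0.11 to 0.17 with 1 library left out (0.17 without control replicate 2, 0.14 without Caba-780 replicate 3), and 0.20 over lincRNAs with a mean of at least 20. That of the 105 others was -0.02, with -0.13 to 0.15. The summed share of reads differed by -0.00425 percentage points, and by -0.0113 to 0.00225 with 1 library left out (0.000976 without Caba-780 replicate 3, 0.00225 without control replicate 1). Library totals moved the median of all genes to 0.23, against 0.10.

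With 6 libraries, some single genes changed sign. With 1 library left out, the log2 change ran between -1.28 and 0.26 in AC008124.1 (0.08 and 0.26 without control replicates 1 and 2), -1.15 and 0.40 in MIR22HG (0.32 and 0.40), -0.30 and 0.039 in MALAT1 (0.039 without control replicate 1), -0.29 and 0.16 in AC002401.4 (0.16, 0.09 and 0.03 without control replicates 1 and 2 and Caba-780 replicate 3), and -0.51 and 3.16 in MIR222HG (-0.51 without control replicate 3, 3.16 without control replicate 2). AC002401.4 was also at 0.12 with library totals and 0.00338 with TMM, and MIR222HG without control replicate 3 at -0.32 with the replicate block, -0.45 with edgeR and -0.46 with DESeq2. The cause was not tested.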
